A study of Mus musculus with 16 samples.

Results

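The 10 genes described here are those of inhibitory motor neuron transmission in the gut: Nos1 and Nos1ap for nitric oxide, Vip, Adcyap1, Vipr1 and Vipr2 for vasoactive intestinal peptide (VIP) and its relative PACAP, Gal and Galr1 for galanin, and the peptide genes Npy and Cartpt. They were chosen by symbol and not by a threshold on a measured value, but with earlier results of these data known, and all 10 were found once among the 51912 Ensembl genes of the count table. RNA was sequenced from sorted nuclei of the muscle layer and myenteric plexus of the colon of C57BL/6 mice kept specific pathogen-free. Every mouse carried an AAV9 vector, given 5 weeks earlier, that puts EGFP on the nuclear envelope under a CaMKII promoter, so "neuronal" means EGFP-positive nuclei and "non-neuronal" means EGFP-negative nuclei. The 4 groups of 4 libraries were neuronal nuclei after the aryl hydrocarbon receptor (AhR) agonist 3-methylcholanthrene, neuronal nuclei after corn oil, non-neuronal nuclei after the agonist and non-neuronal nuclei after corn oil. The column headers of the count table name a project on wild-type mice set against AhR knockouts, although the library part of each header, like the labels, says agonist or corn oil, and the labels were followed. The agonist or the oil was injected intraperitoneally 14 hours before the nuclei were isolated. The sources used here give neither its dose nor the ages of the mice. Whether each library is 1 mouse or a pool is not stated either, so p-values measure only the spread between these libraries. The tag follows the promoter and the vector, so neurons that do not use them are in the EGFP-negative gate.

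The myenteric plexus relaxes colonic muscle through inhibitory motor neurons, which release nitric oxide, VIP or PACAP and often galanin onto smooth muscle, interstitial cells of Cajal and PDGFRA-positive cells. Nitric oxide is made on demand from arginine by neuronal nitric oxide synthase and raises cyclic GMP in the target cell. VIP and PACAP are stored in dense-core vesicles and act on G protein-coupled receptors that raise cyclic AMP. Nuclear RNA reports transcription and RNA not yet exported, and not the amount of enzyme or peptide.

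Total counts ran between 2663738 and 4902303 per library. The 20 pan-neuronal genes were all detected in each of the 8 neuronal libraries, with summed levels of 6718 to 7126 CPM (counts scaled to a library size of 1e6) under the agonist and 6382 to 7671 CPM under corn oil. In the non-neuronal libraries their sum was 117 to 580 CPM under the agonist and 217 to 816 CPM under corn oil, so the EGFP-negative gate held neuronal RNA too, and Rbfox3 had 0 counts in its agonist group. Neuronal agonist library 1 stood apart with the fewest genes detected, 17293, against 21063 to 26379 in the neuronal corn oil libraries. Non-neuronal agonist libraries 1 and 2 had 42.8% and 33.3% of their counts on mitochondrially encoded genes, above 30%, and the calls and treatment responses that use that group are also given without these libraries.

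The promoters of 9 of the 10 genes, 11 promoter windows in all, were found in a RefSeq table (GRCm38.p6) that spans 250 bases before to 50 bases after a gene's start. Galr1 had no entry. The 4 stretches below are shown because they belong to the genes that separated the populations and hold the searched motifs. Capitals mark TGACG or its reverse CGTCA, the half-site bound by cyclic AMP response factors, and GCGTG or its reverse CACGC, the core bound by AhR with its partner ARNT. Each ends at the base before the start, reading 5′ to 3′ on the gene's strand.
Nos1, chr5:117866689-117866838, plus strand: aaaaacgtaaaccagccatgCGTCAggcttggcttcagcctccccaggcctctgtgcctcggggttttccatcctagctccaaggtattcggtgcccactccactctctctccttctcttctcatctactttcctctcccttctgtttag
Vip, chr10:5639068-5639217, plus strand: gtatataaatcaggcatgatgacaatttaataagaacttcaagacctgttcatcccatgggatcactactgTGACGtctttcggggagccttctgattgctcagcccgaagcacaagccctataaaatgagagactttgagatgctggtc
Cartpt, chr13:99900684-99900833, minus strand: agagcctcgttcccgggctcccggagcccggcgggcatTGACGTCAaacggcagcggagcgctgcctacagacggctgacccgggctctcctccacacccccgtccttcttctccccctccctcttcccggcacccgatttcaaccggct
Vipr1, chr9:121642566-121642715, plus strand: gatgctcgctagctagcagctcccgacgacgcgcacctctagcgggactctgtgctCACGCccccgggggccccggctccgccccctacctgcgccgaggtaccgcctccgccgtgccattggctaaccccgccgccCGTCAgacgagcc

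Counted from the start, the first base of the half-site lay at -79 in Vip, at -130 in Nos1 and at -13 in Vipr1. Cartpt held the full palindrome TGACGTCA from -112. Searched on both strands, TGACG was in the windows of 6 of the 9 genes (Nos1, Vip, Vipr1, Cartpt, Adcyap1 and Gal). That was 7 of their 11 windows, beside 20.81% of all 32851 promoter windows in the table. TGACGTCA, which contains TGACG on each strand, was in 1 of the 9 genes, or 1 of the 11 windows, and in 1.79% of all windows. The AhR core GCGTG was in 3 of the 9, Vipr1, Nos1ap and Npy, or 3 of the 11 windows, and in 32.39% of all windows. These matches describe letters, and no binding was measured. In the GENCODE M21 annotation (GRCm38) the Nos1 stretch is intronic, with all 150 bases inside the gene (chr5:117781032-117958840, plus strand) and 0 in exons, so it lies downstream of other annotated starts. All 150 bases of the Cartpt stretch lie in an exon of a longer annotated transcript (gene at chr13:99898489-99901091, minus strand). The Vip and Vipr1 stretches end at the base before their genes (chr10:5639218-5647617 and chr9:121642716-121672954, plus strands).

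Nos1, which encodes neuronal nitric oxide synthase, had the highest mean CPM of the 10 in neuronal nuclei and was, of those tested, the one whose populations lay farthest apart relative to the standard error. Levels below are TMM-scaled CPM, set on 1 scale over all 16 libraries. Nos1 stood at 1672, 833, 555 and 337 CPM in neuronal agonist libraries 1 to 4 and at 593, 752, 815 and 518 CPM in neuronal corn oil libraries 1 to 4. It stood at 18.6, 51.6, 26.0 and 20.5 CPM in non-neuronal agonist libraries 1 to 4 and at 42.9, 44.4, 45.4 and 72.5 CPM in non-neuronal corn oil libraries 1 to 4. Raw CPM favours long genes (exons of 11151 bases for Nos1 and 3402 bases for Vip), and per kilobase of exon Nos1 overlapped Vip under both treatments. Every neuronal library was above every non-neuronal one, and the neuronal agonist libraries spread around the corn oil libraries on both sides. Within a treatment, the populations did not overlap, in either direction, for 21.6% of genes tested under the agonist and 30.6% under corn oil. In sorted bulk nuclei, a larger share of nuclei of a type and more RNA per nucleus cannot be told apart.

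The plot of CPM by library shows all 10 genes on this scale.

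**Figure D1:**
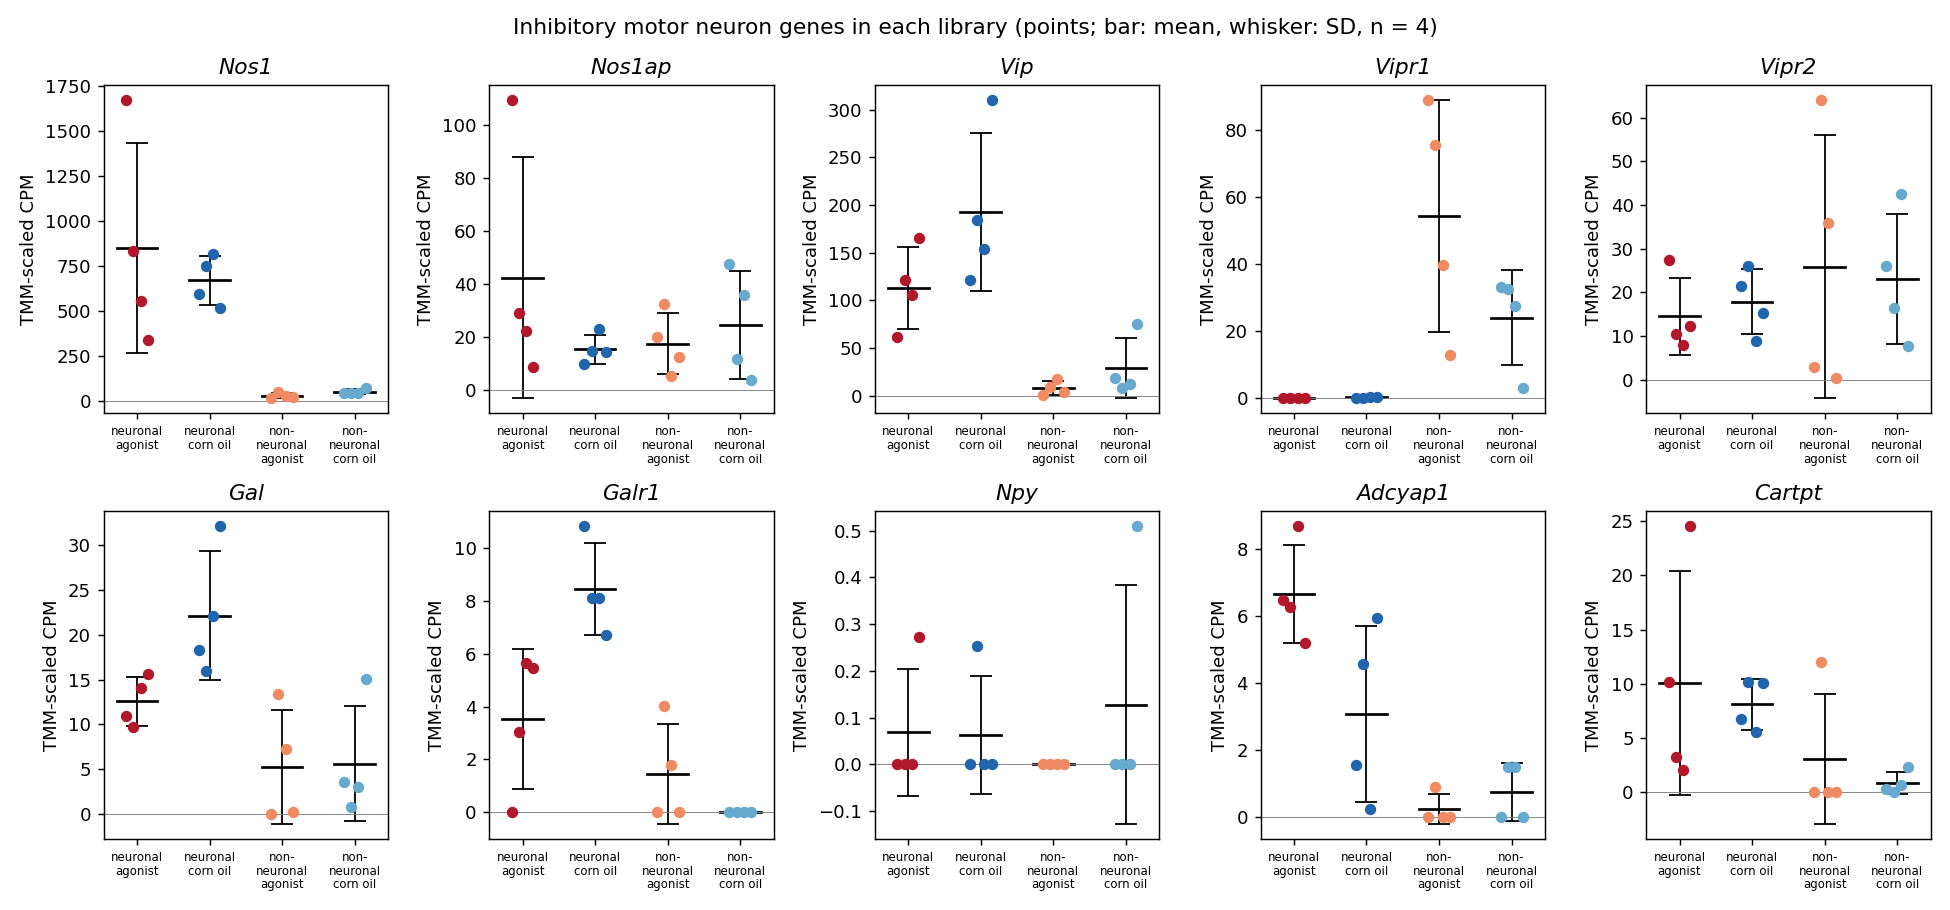
TMM-scaled CPM (vertical axis, a separate linear scale per gene) of the 10 genes in each library, by group from left to right: neuronal agonist, neuronal corn oil, non-neuronal agonist, non-neuronal corn oil. Points are libraries, the long bar is the mean and whiskers are the SD (n = 4). Nos1 and Vip are higher in all neuronal libraries of a treatment than in its non-neuronal libraries, and Vipr1 runs the other way, at 0 to 0.516 CPM in the 8 neuronal libraries.

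Under the agonist, neuronal over non-neuronal nuclei, Nos1 was 28-fold higher (log2 fold change 4.81 ± 0.55 (SE), edgeR adjusted p = 8.96e-05). Under corn oil it was 13.8-fold higher (3.79 ± 0.26, adjusted p = 2.47e-06). Of the 10 genes, 9 passed the count filter under the agonist, and Nos1 and Vip were called higher and Vipr1 lower. Among all 14065 genes tested 13.6% were called, 6.67% higher and 6.97% lower. Under corn oil 7 passed, and Nos1, Vip, Galr1 and Cartpt were called higher and none lower. Among all 15285 genes tested 25.4% were called, 11.8% higher and 13.5% lower. Without the non-neuronal agonist libraries over 30% mitochondrial counts, an alternative added after seeing the data, the same 3 genes were called under the agonist, with adjusted p of 0.00119 for Nos1, 0.0215 for Vip and 0.0117 for Vipr1.

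Relative to neuronal RNA rather than to all RNA, Nos1 was much closer between the populations. Per 1000 counts of the 20 pan-neuronal genes, Nos1 had 63.5 to 213 counts in the 8 neuronal libraries (median 122) and 36.8 to 161 counts in the 8 non-neuronal libraries (median 88.6), which overlap. The sources used here do not give the strand setting of the counting, and the antisense gene Gm26995 overlaps Nos1. Gm26995 itself had 184 counts in neuronal agonist libraries, 197 in neuronal corn oil libraries, 14 in non-neuronal agonist libraries and 2 in non-neuronal corn oil libraries, against 13991, 10700, 357 and 705 counts of Nos1 in the same groups.

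Nos1ap, which encodes an adaptor that binds the synthase, did not follow Nos1. It stood at 109.6, 29.4, 22.3 and 8.75 CPM in neuronal agonist libraries 1 to 4 and at 10.1, 14.7, 23.1 and 14.4 CPM in neuronal corn oil libraries. It stood at 20.1, 32.5, 5.41 and 12.6 CPM in the non-neuronal agonist libraries and at 47.5, 11.8, 36.0 and 3.83 CPM in non-neuronal corn oil libraries. All 4 groups overlapped, and the highest value was that of neuronal agonist library 1, which also held the highest Nos1 value. Neuronal over non-neuronal nuclei, its log2 fold change was 1.19 ± 0.91 (SE) under the agonist and -0.57 ± 0.67 under corn oil, with adjusted p of 0.469 and 0.596. The span of Nos1ap overlaps Gm7694 on the same strand, so counts may be divided between them, and Spata46 on the other strand.

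A list of 12 genes around nitric oxide synthesis was drawn from textbook roles. It holds supply enzymes, the other synthase genes Nos2 and Nos3, and genes whose proteins bind or regulate the synthase. Under the agonist 2 of 8 tested were called higher and none lower in neuronal nuclei: Ass1 at a log2 fold change of 3.45 ± 1.03 (SE, adjusted p = 0.0361) and Asl at 2.90 ± 0.89 (0.0422), the pair of enzymes that remake arginine from citrulline. Under corn oil 3 of 8 were higher and 1 lower: Asl at 3.17 ± 0.53 (0.000675), Ass1 at 2.73 ± 0.56 (0.00277), Dlg4, a scaffold that holds the synthase at the membrane, at 2.41 ± 0.66 (0.0156), and Pts, of tetrahydrobiopterin synthesis, at -1.63 ± 0.51 (0.0303). The median log2 fold change of the 8 was 1.48 under both treatments, beside -0.15 under the agonist and -0.11 under corn oil for all genes tested. In cyclic GMP signalling, Mrvi1, a substrate of cyclic GMP-dependent kinase in smooth muscle, was the 1 gene of 9 called under the agonist, at -5.57 ± 0.80 (0.000456). Under corn oil Mrvi1 was again lower, at -5.00 ± 0.92 (0.00136). There Gucy1a2, a subunit of the nitric oxide receptor guanylyl cyclase, was higher at 4.21 ± 0.61 (0.000245). The potassium channel gene Kcnma1 was higher too, at 1.15 ± 0.29 (0.00955). The median log2 fold change of the 9 cyclic GMP genes was 0.13 under the agonist and -0.01 under corn oil. Among all genes tested, 13.6% were called under the agonist and 25.4% under corn oil.

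Vip, the precursor of VIP, was the second gene called higher in neuronal nuclei under both treatments. It stood at 61.4, 121, 106 and 165 CPM in neuronal agonist libraries 1 to 4 and at 122, 185, 154 and 310 CPM in neuronal corn oil libraries 1 to 4. It stood at 0.745, 8.90, 17.5 and 4.11 CPM in the non-neuronal agonist libraries and at 18.7, 8.14, 12.7 and 75.6 CPM in non-neuronal corn oil libraries. The populations did not overlap under either treatment, like those of 21.6% of genes tested under the agonist and 30.6% under corn oil. Non-neuronal corn oil library 4 came closest to the neuronal range. Neuronal over non-neuronal nuclei, Vip was 14.5-fold higher under the agonist (log2 fold change 3.86 ± 0.84 (SE), edgeR adjusted p = 0.00663) and 7.05-fold higher under corn oil (2.82 ± 0.61, adjusted p = 0.00381). Non-neuronal corn oil library 4 also had the highest pan-neuronal sum of its group, 816 CPM against 217 to 581 CPM, and without it the corn oil log2 fold change of Vip was 3.98. Under the agonist it was 4.58 without non-neuronal agonist library 3, the highest of its group. The part of that neuronal RNA in the corn oil result was not tested. Per 1000 pan-neuronal counts, Vip had 7.82 to 51.0 counts in the neuronal libraries (median 26.1) and 3.50 to 93.6 counts in the non-neuronal libraries (median 24.5).

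The plot of counts per 1000 pan-neuronal counts sets the 10 genes on that scale.

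**Figure D2:**
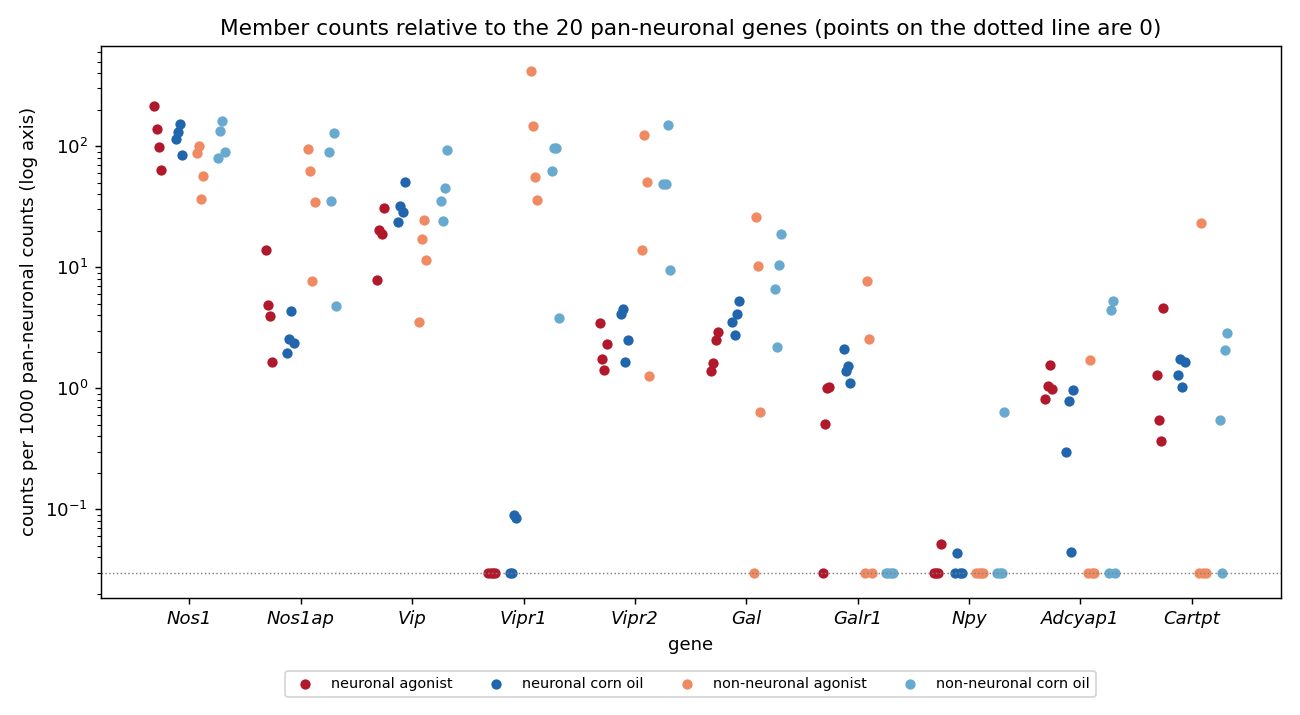
Counts of each gene per 1000 counts of the 20 pan-neuronal genes (vertical log axis), 1 point per library, with the groups left to right as in the legend. Points on the dotted line are libraries with 0 counts. Nos1, Vip, Nos1ap and Vipr2 overlap between neuronal and non-neuronal libraries on this scale, and Vipr1 does not. Nos1ap, Vipr1 and Vipr2 have medians of 3.26, 0 and 2.41 in neuronal libraries and of 49.1, 79.7 and 48.6 in non-neuronal libraries.

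Vip and Nos1 counts did not keep 1 ratio across the neuronal libraries. There were 0.0367, 0.145, 0.191 and 0.490 Vip counts per Nos1 count in neuronal agonist libraries 1 to 4, and 0.205, 0.246, 0.189 and 0.599 in neuronal corn oil libraries 1 to 4. The lowest ratio was in neuronal agonist library 1 and the highest in neuronal corn oil library 4, so the spread within a treatment was larger than the gap between treatments. Nos1 counts per count of Chat, the acetylcholine synthesis gene of excitatory motor neurons, were 9.03, 9.41, 3.62 and 3.01 in neuronal agonist libraries and 7.56, 11.3, 7.54 and 6.48 in neuronal corn oil libraries. Chat itself was higher in neuronal than in non-neuronal nuclei, at 4.34 ± 1.00 (SE, log2, adjusted p = 0.00918) under the agonist and 4.39 ± 0.68 (0.000432) under corn oil, so RNA of cholinergic neurons was in the EGFP-positive gate too. Of the 6 cholinergic and tachykinin genes listed, 3 were called higher under the agonist and 6 under corn oil. Among all genes tested, 6.67% were called higher under the agonist and 11.8% under corn oil.

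The plot of Vip against Nos1 shows the 8 neuronal libraries.

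**Figure D3:**
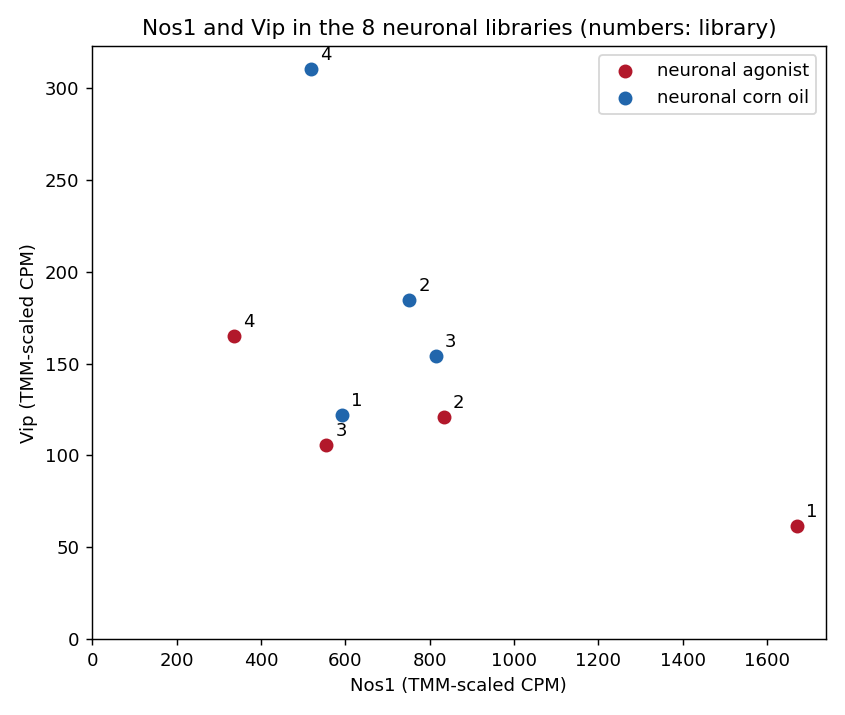
Vip against Nos1 (TMM-scaled CPM, linear axes from 0) in the 4 neuronal agonist and 4 neuronal corn oil libraries, with the library number beside each point. Neuronal agonist library 1 has the most Nos1, 1672 CPM, and the least Vip, 61.4 CPM, and neuronal corn oil library 4 has the most Vip, 310 CPM.

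Adcyap1, the PACAP precursor, had few counts and was not called between the populations. It stood at 6.46, 6.26, 8.70 and 5.19 CPM in neuronal agonist libraries 1 to 4 and at 1.55, 4.56, 0.238 and 5.93 CPM in neuronal corn oil libraries. In all it had 2 counts in the non-neuronal agonist libraries and 9 in the non-neuronal corn oil libraries. Under the agonist the 4 neuronal libraries were all above the 4 non-neuronal ones, as were or were below 21.6% of all genes tested, and the ratio of summed counts relative to library size was 65.3 (108 against 2 counts, 95% interval 17.6 to 546, counting error only). The edgeR test gave an adjusted p of 0.0528, and 6 of 17 alternatives gave one below 0.05, from 0.0148 to 0.0487. Under corn oil the 48 counts in neuronal nuclei and 9 in non-neuronal nuclei did not pass the filter, with a ratio of 5.84 (2.83 to 13.5).

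The receptors Vipr1 and Vipr2, which both bind VIP and PACAP, were not distributed alike. Vipr1 had 0 counts in all 4 neuronal agonist libraries, which allows up to 0.208 CPM, and 0, 0, 0.476 and 0.516 CPM in neuronal corn oil libraries 1 to 4. It stood at 89.0, 75.6, 39.7 and 13.0 CPM in the non-neuronal agonist libraries and at 33.3, 32.6, 27.4 and 3.06 CPM in non-neuronal corn oil libraries. Library 4 was the lowest of each non-neuronal group, yet all 8 non-neuronal libraries were above all 8 neuronal ones. Within a treatment, the populations did not overlap for 21.6% of genes tested under the agonist and 30.6% under corn oil. Under the agonist Vipr1 was at least 171-fold lower in neuronal nuclei (0 against 620 counts, at a floor of 3 counts over the group; edgeR adjusted p = 0.000768). Under corn oil it did not pass the filter, with 4 counts in neuronal nuclei against 307 in non-neuronal nuclei, a ratio of 0.0143 (95% interval 0.00386 to 0.0369, counting error only). With no filter its adjusted p was 1.73e-07.

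Vipr1 is known from T lymphocytes and colonic epithelium, and markers of both were in the same gate. The 7 epithelial markers summed to 5.02 to 43.5 CPM in neuronal agonist libraries and 23.8 to 118 CPM in neuronal corn oil libraries. They summed to 859 to 3626 CPM in the non-neuronal agonist libraries and 1574 to 11004 CPM in non-neuronal corn oil libraries, with all 7 detected in each non-neuronal library. The 5 lymphocyte markers summed to 0.902 to 5.97 CPM in neuronal agonist libraries and 0.304 to 8.76 CPM in neuronal corn oil libraries, against 39.8 to 394 CPM in the non-neuronal libraries under the agonist and 78.2 to 173 CPM in those under corn oil. In the non-neuronal libraries Cd79a, of B cells, had 0 counts under the agonist, while Cd3e, of T cells, had 224 counts under the agonist and 363 under corn oil. The part of these cells in the Vipr1 result was not tested.

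Vipr2 stood at 27.3, 10.4, 7.93 and 12.3 CPM in neuronal agonist libraries, 21.4, 26.1, 8.82 and 15.2 CPM in neuronal corn oil libraries, 2.98, 64.1, 35.8 and 0.456 CPM in the non-neuronal agonist libraries and 26.0, 16.3, 42.5 and 7.66 CPM in non-neuronal corn oil libraries. All groups overlapped, and the widest spread was in the non-neuronal agonist libraries. Neuronal over non-neuronal nuclei, its log2 fold change was -0.88 ± 1.17 (SE, adjusted p = 0.706) under the agonist and -0.27 ± 0.58 (0.785) under corn oil, and its sign changed under some alternatives. An antisense gene, Gm20658, overlaps it over 35880 bases.

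Of galanin and its receptor, Galr1 was called higher in neuronal nuclei under corn oil, and Gal was called under neither treatment. Gal stood at 10.9, 9.71, 14.1 and 15.6 CPM in neuronal agonist libraries 1 to 4 and at 18.3, 15.9, 22.2 and 32.2 CPM in neuronal corn oil libraries. It stood at 0, 13.3, 7.22 and 0.228 CPM in the non-neuronal agonist libraries and at 3.50, 0.740, 2.95 and 15.1 CPM in non-neuronal corn oil libraries. Under corn oil all 4 neuronal libraries were above all 4 non-neuronal ones, a split seen in 1 direction or the other for 30.6% of genes tested. The log2 fold change there was 2.06 ± 0.78 (SE), with an edgeR adjusted p of 0.0702. Without non-neuronal corn oil library 4 it was 3.30, with an adjusted p of 0.00372. In all, 6 of 16 alternatives called Gal higher under corn oil, that one among them. Under the agonist the log2 fold change was 1.25 ± 1.34 (0.624), and the populations overlapped. Per 1000 pan-neuronal counts, Gal had a median of 2.85 counts in the neuronal libraries and of 8.38 counts in the non-neuronal libraries.

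Galr1 had 0, 3.02, 5.63 and 5.47 CPM in neuronal agonist libraries 1 to 4 and 10.8, 8.10, 8.10 and 6.70 CPM in neuronal corn oil libraries. It had 0, 4.00, 1.80 and 0 CPM in the non-neuronal agonist libraries and 0 counts in all 4 non-neuronal corn oil libraries, which allows up to 0.213 CPM. Under corn oil the neuronal level of Galr1 was higher, by at least 48.9-fold (134 against 0 counts by library size, at a floor of 3 counts over the group; edgeR adjusted p = 0.00129). Under the agonist the populations overlapped, with 56 counts in neuronal nuclei and 16 in non-neuronal nuclei, and a log2 fold change of 1.29 ± 1.59 (SE, adjusted p = 0.681).

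Cartpt, the precursor of the CART peptides, stood at 10.2, 3.24, 2.05 and 24.6 CPM in neuronal agonist libraries 1 to 4 and at 6.71, 10.1, 5.48 and 10.1 CPM in neuronal corn oil libraries. It had 0, 12.01, 0 and 0 CPM in the non-neuronal agonist libraries and 0.292, 0, 0.590 and 2.30 CPM in non-neuronal corn oil libraries. Under corn oil the populations did not overlap, like those of 30.6% of genes tested. Cartpt was 10.0-fold higher in neuronal nuclei there (log2 3.32 ± 1.02 (SE), edgeR adjusted p = 0.0279). That call was lost in 8 alternatives, 6 of them leaving out 1 library, with adjusted p of 0.0559 to 0.197: without neuronal corn oil library 1, 2, 3 or 4 in turn, and without non-neuronal corn oil library 1 or 3. Without non-neuronal corn oil library 4 the log2 fold change was 4.69, and its adjusted p 0.00614. Under the agonist it was 1.71 ± 1.70 (0.596), and non-neuronal agonist library 2 alone gave all of the 27 non-neuronal counts. Without that library the adjusted p was 0.0287, and without both libraries over 30% mitochondrial counts it was 0.0557.

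Npy, which encodes neuropeptide Y, had 1 count in the neuronal agonist libraries, 1 in the neuronal corn oil libraries, 0 in the non-neuronal agonist libraries and 2 in the non-neuronal corn oil libraries. It was at or under the floor of 3 counts in every group and entered no test. Of the 10 related peptides and receptors matched (Galr3, also listed, was not matched), Adcyap1r1, the PACAP-preferring receptor, was called higher under corn oil at 2.07 ± 0.57 (SE, log2, adjusted p = 0.0159). Gpr160 was called lower there at -3.54 ± 0.63 (0.00115), and none of the 5 tested was called under the agonist. Among all genes tested, 25.4% were called under corn oil and 13.6% under the agonist. Pyy, the gut relative of Npy, had 0 counts in both neuronal groups, 29 in the non-neuronal agonist libraries and 37 in the non-neuronal corn oil libraries.

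Of 12 genes for processing such peptides and for dense-core vesicles, 6 were called higher in neuronal nuclei under the agonist, none lower and 6 not at all, with a median log2 fold change of 3.01. Among them were the vesicle-priming gene Cadps at 3.87 ± 0.49 (SE, adjusted p = 0.000166), the prohormone convertase Pcsk1 at 5.22 ± 0.79 (0.000611), the convertase chaperone Scg5 at 6.79 ± 1.56 (0.00913) and the granin Scg2 at 2.91 ± 0.76 (0.0185). Among all genes tested under the agonist, 6.67% were called higher and 6.97% lower, with a median of -0.15. Under corn oil 8 of the 12 were called higher, 1 lower and 3 not at all, with a median of 1.89. All genes tested there had 11.8% called higher, 13.5% lower and a median of -0.11. Cadps was at 4.32 ± 0.40 (1.21e-05), Pcsk1 at 3.30 ± 0.43 (0.000133), Scg2 at 2.86 ± 0.38 (0.000138) and Pcsk2, the other neuroendocrine convertase, at 3.21 ± 0.57 (0.0011), while Cpe, a carboxypeptidase, was the gene called lower, at -1.31 ± 0.43 (0.0415).

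The plot of population fold changes gathers the fitted values of the 10 genes.

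**Figure D4:**
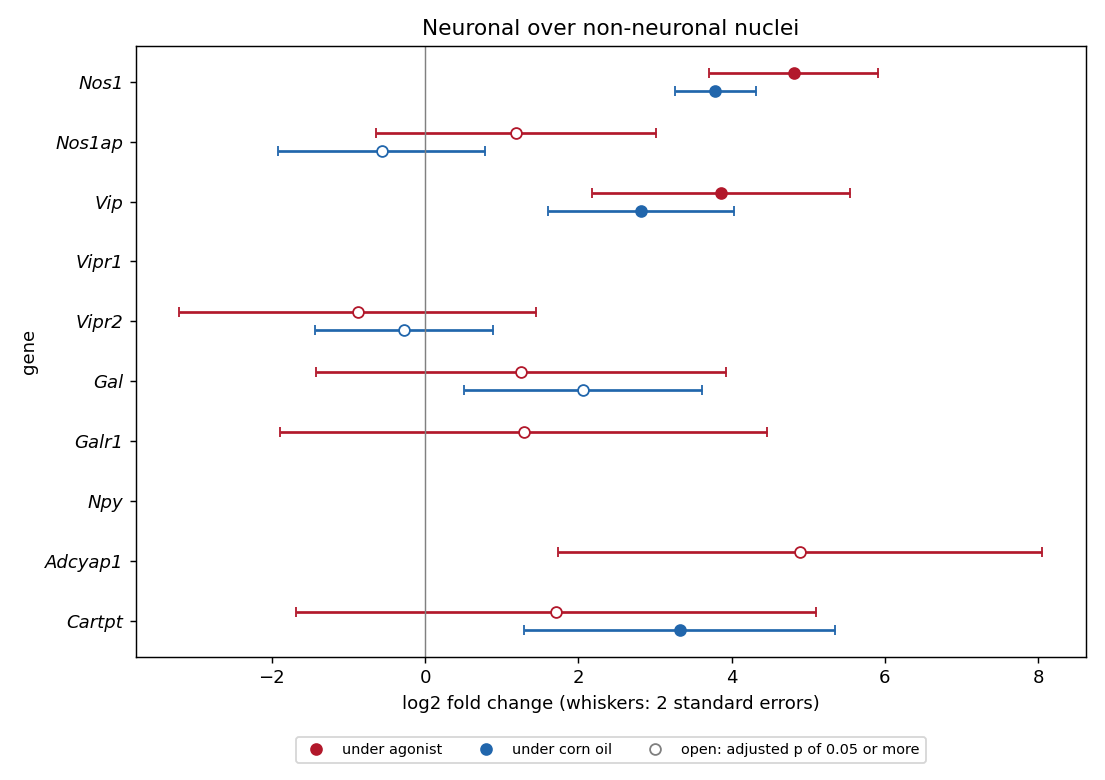
Log2 fold change of neuronal over non-neuronal nuclei (horizontal axis) for each gene under the agonist and under corn oil, with whiskers of 2 SE. Filled points have an adjusted p under 0.05. Genes that failed the count filter or had a group at 0 counts have no point. Nos1 (4.81 under the agonist, 3.79 under corn oil) and Vip (3.86 and 2.82) are filled under both treatments, and Cartpt (3.32) under corn oil.

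Per kilobase of exon, which allows genes to be compared, the order of mean levels in neuronal agonist libraries was Nos1 at 76.2 ± 52.4 CPM per kb (SD, n = 4), Vip at 33.3 ± 12.6, Gal at 15.96 ± 3.45, Cartpt at 7.85 ± 8.12, Nos1ap at 5.86 ± 6.28, Vipr2 at 3.24 ± 1.96, Adcyap1 at 1.76 ± 0.39 and Galr1 at 1.18 ± 0.88. Each gene in that order overlapped the next. In neuronal corn oil libraries Nos1 at 60.0 ± 12.3, Vip at 56.6 ± 24.3 and Gal at 28.1 ± 9.1 CPM per kb overlapped in turn and lay above Cartpt at 6.34 ± 1.85, with no overlap at that step. Vipr2, Galr1, Nos1ap and Adcyap1 followed, at 4.01, 2.82, 2.15 and 0.812 CPM per kb. In non-neuronal agonist libraries Vipr1 was first, at 9.37 ± 5.95 CPM per kb, and in non-neuronal corn oil libraries Vip was first, at 8.45 ± 9.26. In both non-neuronal groups each gene overlapped the next.

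The groups set the AhR agonist against corn oil, and for these genes no response passed the test in either population. In neuronal nuclei 8 of the 10 were tested and 0 called, as were 0% of all 14182 genes (711 genes had an unadjusted p under 0.05, DESeq2 called 9 and limma voom 0). Agonist over corn oil, the log2 fold change of Vip was -0.77 ± 0.35 (SE; unadjusted p = 0.0457, adjusted p = 0.903), with means of 113 ± 43 CPM under the agonist and 193 ± 83 CPM under corn oil (SD, n = 4 each), and the libraries overlapped. For Nos1 the log2 fold change was 0.35 ± 0.38 (adjusted p = 0.946), with means of 849 ± 585 CPM under the agonist and 669.6 ± 138 CPM under corn oil, and without neuronal agonist library 1 it was -0.22. For Nos1ap it was 1.45 ± 0.67 (adjusted p = 0.903), and without neuronal agonist library 1 it was 0.37.

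Gal and Galr1 were the 2 genes whose 4 neuronal agonist libraries were all below the 4 neuronal corn oil libraries, a split seen in 1 direction or the other for 3.64% of genes tested. Gal averaged 12.6 ± 2.7 CPM under the agonist and 22.2 ± 7.2 CPM under corn oil (SD, n = 4 each), with a log2 fold change of -0.82 ± 0.47 (SE, adjusted p = 0.903), and its libraries overlapped under scaling by library size. Galr1 averaged 3.53 ± 2.64 CPM under the agonist and 8.44 ± 1.73 CPM under corn oil, with -1.25 ± 0.94 (adjusted p = 0.915). The intervals of 2 SE reached from -1.75 to 0.11 for Gal and from -3.13 to 0.62 for Galr1. Vipr2 had -0.30 ± 0.56, Adcyap1 1.11 ± 0.88 and Cartpt 0.30 ± 0.78, with adjusted p of 0.919 to 0.979.

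In non-neuronal nuclei 6 of the 10 were tested and 0 called, against 0.0135% of all 14846 genes. The edgeR fit gave 715 genes an unadjusted p under 0.05 there, none of them among the 10, and DESeq2 called 35 genes and limma voom 0, again with none of the 10. Vipr1 averaged 54.3 ± 34.5 CPM under the agonist and 24.1 ± 14.2 CPM under corn oil (SD, n = 4 each), and its log2 fold change was 1.22 ± 0.80 (SE, adjusted p = 0.956). Without the libraries over 30% mitochondrial counts, which hold its highest values, the Vipr1 change was 0.13 ± 0.98 (0.979). Vip had -1.83 ± 1.07 (0.954), Nos1 -0.76 ± 0.63 (0.974), Nos1ap -0.42 ± 0.94 (0.992), Vipr2 0.22 ± 1.11 (0.992) and Gal -0.05 ± 1.49 (0.997). Without those libraries the changes were -1.42 for Vip, -1.14 for Nos1, -1.45 for Nos1ap, -0.35 for Vipr2 and -0.60 for Gal, none of them called. The Vip change was -0.70 without non-neuronal corn oil library 4 and -2.62 without non-neuronal agonist library 3. All 10 genes overlapped between the treatments on the TMM scale, while 3.42% of all genes tested did not. By library size alone the 4 non-neuronal agonist libraries of Nos1 were all below the corn oil ones. The share of all genes that split so was not counted on that scale. The part of the mitochondrial counts of non-neuronal agonist libraries 1 and 2 in that split was not tested. None of the listed nitric oxide, cyclic GMP, related peptide, peptide-processing or cholinergic genes was called in either population.

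The plot of agonist fold changes shows how wide these intervals are.

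**Figure D5:**
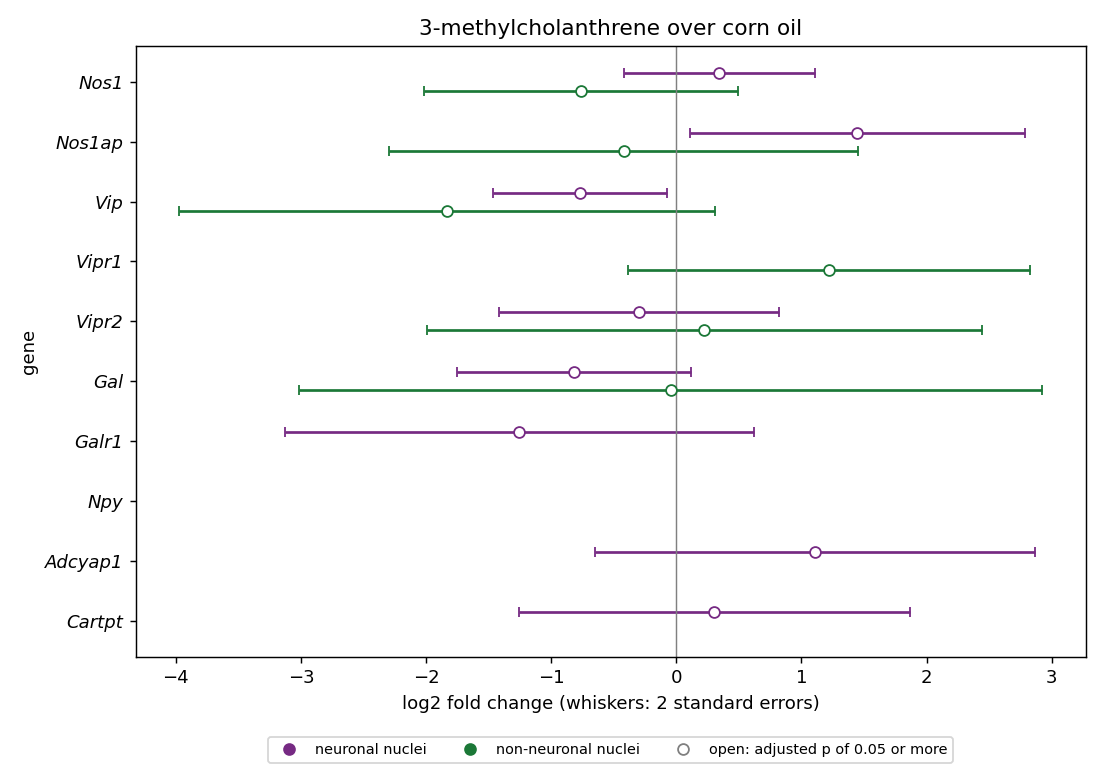
Log2 fold change of 3-methylcholanthrene over corn oil (horizontal axis) for each gene in neuronal and in non-neuronal nuclei, with whiskers of 2 SE. Genes that failed the count filter or had a group at 0 counts have no point. All points are open, since no adjusted p is under 0.05, and the narrowest neuronal intervals are those of Vip (-1.46 to -0.07) and Nos1 (-0.41 to 1.105).

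Whether the agonist response differed between the populations was tested in 1 fit over all 16 libraries, as the neuronal response minus the non-neuronal response. Of the 10 genes 9 were tested and 0 called, as were 0% of all 18566 genes (1484 had an unadjusted p under 0.05, DESeq2 called 103 and limma voom 0). The difference for Nos1 was 1.16 ± 0.56 on the log2 scale (SE, unadjusted p = 0.0491, adjusted p = 0.624). Galr1 and Vipr1 had unadjusted p of 0.0113 and 0.0235 and adjusted p of 0.505 and 0.567, each with 1 group at 0 counts, so no size is given. Nos1ap had 1.94 ± 1.16 (adjusted p = 0.705), Vip 1.11 ± 0.94 (0.833) and Adcyap1 2.88 ± 2.13 (0.782). Gal had -0.70 ± 1.55, Vipr2 -0.46 ± 1.33 and Cartpt -1.497 ± 2.09, with adjusted p of 0.921 to 0.975. Without the libraries over 30% mitochondrial counts the difference was 1.45 for Nos1, 2.86 for Nos1ap, 0.64 for Vip and 5.49 for Adcyap1, with adjusted p of 0.342 to 0.840. Both agonist responses enter this difference, so it is no further evidence for either.

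Genes whose pattern over the 16 libraries was most like that of Nos1 or of Vip were found by the mean absolute difference of log2(CPM + 2), each gene centred on its own mean, among 18565 other genes. Nearest to Nos1 were Ahi1 at 0.37, the sodium channel gene Scn11a at 0.39, Clgn at 0.42, Grk3 at 0.42 and the calcium channel gene Cacna1a at 0.42. Ahi1 stood at 977 ± 291.9 CPM in neuronal agonist libraries, 785 ± 134 CPM in neuronal corn oil libraries, 38.0 ± 26.2 CPM in the non-neuronal agonist libraries and 71.9 ± 31.3 CPM in non-neuronal corn oil libraries (SD, n = 4 each). Nearest to Vip were Gm43320 at 0.35, the vesicle protein gene Rab3c at 0.46, Xkr6 at 0.47, Gm44242 at 0.49 and Hmgcll1 at 0.49. Among the 10, the distance between Nos1 and Vip was 0.82, between Vip and Gal 0.85, between Gal and Galr1 0.55, and between Nos1 and Nos1ap 1.997. Of pairs not matched by role, Galr1 and Cartpt were at 0.70 and Gal and Cartpt at 0.71. Adding 2 to CPM narrows the distances between genes of few counts.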

How the data were processed

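The authors deposited 1 table of expected counts per Ensembl gene, not scaled to library size, made per the submitters' processing notes with STAR 2.5.2 and RSEM 1.3.0 on GRCm38 (those notes list DESeq2 1.10.1 too). The sources used here state neither the annotation release nor a strand setting. Between 89.2% and 94.3% of values per library were whole numbers, and all were rounded. Nuclear RNA had been amplified (Ovation RNA-Seq System V2) and sequenced as single-end reads, per the labels' protocols. Symbols, positions and exon lengths came from GENCODE M21, promoters from RefSeq.

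Each comparison was fitted in edgeR 4.0.16 (R 4.3.3; TMM, filterByExpr with minimum count 10 and minimum total 15, robust quasi-likelihood, two-sided F-test) on the 8 libraries compared, or on 16 for the difference, and adjusted by Benjamini-Hochberg over all genes tested. Calls are at adjusted p under 0.05. SE is the log2 fold change over the square root of F. CPM levels use 1 TMM scaling of all 16 libraries, while marker sums and fold bounds use library size. Depth intervals and floors (3 counts) cover counting error only. DESeq2 1.42.0 and limma 3.58.1 voom were alternatives. The code was tested on simulated data, and no 2 libraries of the same group matched within sampling noise.

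The members and lists were chosen with earlier results of these data known. All 10 members are named, with at most 4 called genes per list and comparison by smallest adjusted p, and the 5 genes nearest to Nos1 and to Vip. The cell lists covered pan-neuronal, glial, smooth muscle, interstitial, fibroblast, endothelial, macrophage, lymphocyte and epithelial markers. Under corn oil 20 of 20 pan-neuronal genes were called higher in neuronal nuclei. Of all genes tested under corn oil, 11.8% were called higher and 13.5% lower. Called lower there were 2 of 3 glial, 10 of 10 smooth muscle, 3 of 5 interstitial (1 higher), 6 of 8 fibroblast, 6 of 7 endothelial, 4 of 5 macrophage, 2 of 2 lymphocyte and 7 of 7 epithelial genes tested.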

Additional observations from a re-analysis of the deposited data

Results flagged for a closer look

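In each group of 4 libraries with at least 10 counts of a gene, the highest and lowest values were set against Dixon's 95% critical value, over 31 pairs of gene and group, and chance alone marks about 1 in 20. There were 3 libraries far from the rest of their group. Nos1 stood at 72.5 CPM in non-neuronal corn oil library 4, where the other 3 libraries held 42.9 to 45.4 CPM. Vip stood at 75.56 CPM in the same library, where the others held 8.14 to 18.7 CPM. Cartpt stood at 12.01 CPM in non-neuronal agonist library 2, where the others held 0. Non-neuronal corn oil library 4 also had the highest summed smooth muscle markers of its group, 14343 CPM against 3543 to 5457 CPM, and the highest pan-neuronal sum, and the part of either in these values was not tested.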

How the results depend on the processing

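Each result was recomputed with other scalings, filters, tools and fits, and without each library in turn. Of 687 values of single genes 641 kept their direction and side of the threshold, 8 lost the threshold (all Cartpt under corn oil), 13 crossed it and 25 changed sign, all without passing it in either fit. Nos1 and Vip kept their population calls in every alternative run, Vipr1 under the agonist and Galr1 under corn oil did too, and no member was called for the agonist or the difference.

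Counts of all genes called moved as follows. With no low-count filter they were 152 (neuronal agonist response), 88 (non-neuronal), 3324 (populations under the agonist) and 110 (difference), and with DESeq2 9, 35, 2937 and 103, beside 0, 2, 1918 and 0. The non-neuronal count was 0 by library size, 0 with limma voom, 11 in 1 fit over all 16 libraries (4590 for the populations under the agonist), and 1 without the libraries over 30% mitochondrial counts, where the difference gave 7. Leaving out 1 library gave 0 to 2 non-neuronal calls, 1553 to 2064 under the agonist, 3399 to 4735 under corn oil and 0 to 9 for the difference, with 9 without non-neuronal agonist library 3. Scaling by library size turned the split under the agonist to 1332 higher and 649 lower, beside 938 and 980, and under corn oil to 2084 and 1679, beside 1811 and 2065, since it moved the median log2 fold change of all genes to 0.43 from -0.15 and to 0.11 from -0.11. For the others the cause was not tested.

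These log2 fold changes, none of them called, took the other sign in some fits. For the neuronal agonist response, Cartpt was -0.33 with voom and -0.26 with the replicate block, and leaving out 1 library gave -0.65 to 0.64 for it and -0.22 to 0.60 for Nos1. For the non-neuronal response, Vipr2 was -0.26 by library size, -1.47 with voom, -1.26 with the replicate block and -0.35 without the libraries over 30% mitochondrial counts. Leaving out 1 library there gave -0.78 to 0.68 for Vipr2, -1.12 to 1.16 for Gal and -0.91 to 0.095 for Nos1ap. Between populations Vipr2 was 0.88 with voom and 0.54 with the replicate block under the agonist, with -1.31 to 0.12 over the left-out libraries, and 0.023 by library size under corn oil, with -0.54 to 0.23. For the difference, voom gave 1.12 for Vipr2, 0.46 for Gal and 0.31 for Cartpt, and Cartpt was 4.904 without the libraries over 30% mitochondrial counts. Leaving out 1 library gave -1.04 to 0.42 for Vipr2, -2.02 to 0.24 for Gal, -2.94 to 4.85 for Cartpt and -0.13 to 1.80 for Vip.

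Libraries share numbers across groups, but deviations of same-numbered libraries correlated at -0.120 to 0.227, with 1 of 16 pairs over 0.1, so the numbers were not treated as pairs. A replicate block gave 0, 2, 1941, 3731 and 0 calls in the 5 comparisons, and the Gal difference under corn oil then had an adjusted p of 0.0219. Between 1 and 2 of the 4 libraries in a comparison correlated best with their own number.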
